A study of Mus musculus with 242 samples.

Results

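Coumarin is a sweet-smelling lactone of tonka bean and cassia cinnamon, given here to female mice by stomach tube. The 4 coumarin arrays were those with that treatment label, at 200 mg/kg, and the 4 controls were the corn oil arrays whose titles contain CCO2. Together they made up 8 of the 242 arrays of the series, which was collected to look for liver transcripts that foretell liver tumours in female mice across 26 chemicals. All mice were B6C3F1 females that entered at 5 weeks of age, and livers were taken after 13 weeks, at 18 weeks. Both groups received 5 ml/kg of corn oil by gavage on 5 days of each week, with coumarin in it for the treated group only. Each array (Affymetrix Mouse430_2, biotin label) held total RNA from the right, caudate and median lobes of 1 mouse, so values are averages over all cells of the liver. The labels do not pair treated and control sets, and CCO2 is the corn oil gavage control set of the same run, called run A here.

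In liver, coumarin is oxidised by cytochrome P450 enzymes. One route gives a reactive epoxide, which is removed by conjugation with glutathione, and a competing route of hydroxylation depends on Cyp2a5 in mice. Glutathione transferases carry out the conjugation, and many of their genes are known targets of NRF2, the transcription factor that electrophiles release from KEAP1. Mouse liver also differs between the sexes in many P450 genes, a difference set by the pattern of growth hormone secretion acting through STAT5B, BCL6 and CUX2.

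Run A held 54 arrays in 13 groups under 2 run codes in the labels, RSTLRI601_1 and RSTLRI000, and both the coumarin and the CCO2 group had 2 arrays in each code. All arrays used had a trimmed mean signal of 500, and the median signal per array was 78.3 to 111 with coumarin and 72.9 to 115 in CCO2. The RNA integrity number was 7.2 to 7.8 with coumarin and 6.6 to 7.1 in CCO2, so it moved with treatment without overlap. The log2 ratio of 3' to 5' Gapdh probe sets was -0.35 to 0.12 and -0.30 to 0.08. Albumin (Alb), the defining transcript of hepatocytes, read 53626 to 67176 with coumarin and 40651 to 65344 in CCO2, and all 8 livers were thus high in it. Every difference below is coumarin minus control on the scale of log2(signal + 17.3), ± the standard error of the limma fit, with 4 arrays in each group. That error uses a spread estimated over all 54 arrays of run A, so it can be too small where the 8 compared mice varied more. The p-values are adjusted over all 45037 probe sets tested. Signals of single arrays are listed in the order of replicates 1 to 4. A probe set was called changed at an adjusted p under 0.05 with at least a 1.5-fold difference.

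After coumarin 64 probe sets changed (0.142% of those tested), 49 upward (0.109%) and 15 downward (0.0333%). The 64 covered 48 named genes, and 8 probe sets had no single gene name. In 60 of the 64 the coumarin and CCO2 values did not overlap, a pattern seen in 3.39% of all probe sets. The 64 were picked from the same 8 arrays, so this is a description and no separate support. With each gene taken at its brightest probe set, 37 of 18193 genes changed (0.203%), 33 upward (0.181%) and 4 downward (0.022%). The median difference over all genes was -0.0003. With only the 2 groups in the fit, 1 probe set passed, so the calls rest on the spread being estimated over all groups of the run. Without CCO2 replicate 2 or 4 the count was 37 or 36. An RNA integrity number was given for 48 of the 54 arrays, among them all 8 compared here. With that number in the fit and the other 6 arrays dropped, 73 probe sets were called, 55 of them among the 64, and 19 of the 21 changed genes named by rule passed. On the same 48 arrays without it, 66 were called, 61 of them among the 64.

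**Figure D1:**
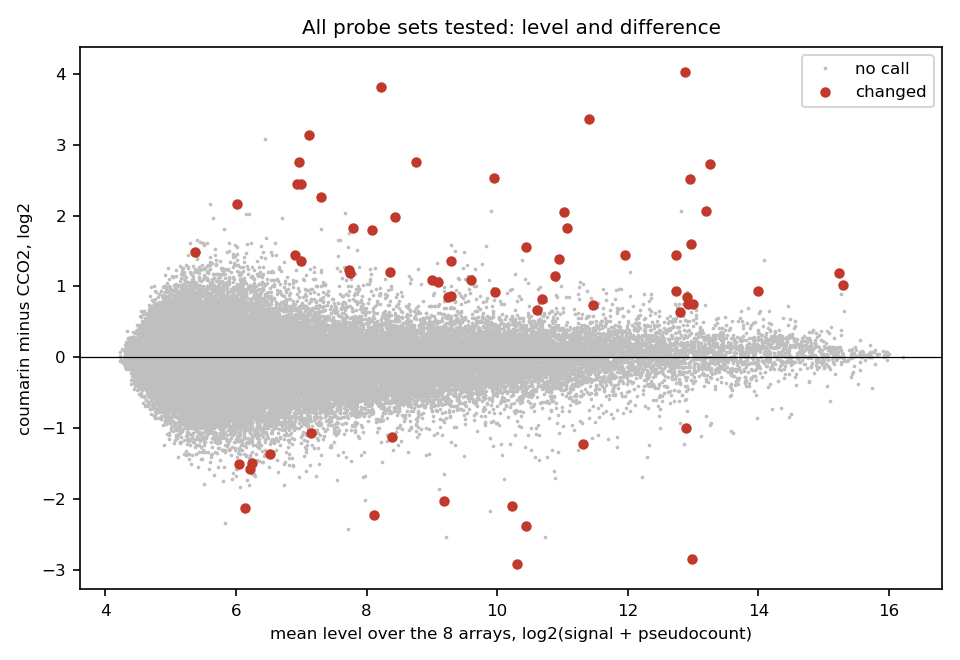
Difference between coumarin and CCO2 (vertical axis, log2) against mean level over the 8 arrays (horizontal axis, log2 of signal plus the pseudocount) for the 45037 probe sets tested, with the 64 changed ones in red. More red points lie above zero (49) than below (15), and those above reach high signal levels.

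Several glutathione transferases rose. Each list below is counted through the brightest probe set of each gene. Over all genes counted in that way 0.181% rose and 0.022% fell, the shares to set beside the count of every list. Of 20 measured transferases 5 rose and none fell, Gstm3, Gsta2, Gsta4, Gstm4 and Gstm1. Their median difference was 0.46, against -0.0003 over all genes, and all 20 differences were above zero. In 10 of the 20 every coumarin array exceeded every CCO2 array, which held for 2.18% of all genes. Summed over the 20 brightest probe sets, the signal was 325378 to 375262 with coumarin and 210118 to 241101 in CCO2.

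Gstm3, a mu class transferase, read 22913, 28492, 29708 and 20710 in the coumarin mice. In the CCO2 mice it read 1825, 4504, 3028 and 8246. The groups lay far apart, and the difference was 2.73 ± 0.36 (6.62-fold, adjusted p = 2e-05). A dimmer Gstm3 probe set rose by 3.36 ± 0.41 (adjusted p = 3.7e-06). Gsta2, an alpha class transferase, read 17001, 15932, 19873 and 23936 against 2586, 1763, 7459 and 3426. No control reached the lowest coumarin value, with a difference of 2.52 ± 0.44 (5.74-fold, adjusted p = 0.0024). Among the 50 other arrays of run A, 6 reached the lowest coumarin value for Gstm3 and 9 did for Gsta2. The largest rise of all, 4.03 ± 0.43 (16.4-fold, adjusted p = 2.7e-07), was that of a probe set with several gene names in the annotation, which is left unnamed and was picked out for its size. It read 23312 to 35956 with coumarin and 1196 to 3705 in CCO2.

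Gsta4, an alpha class enzyme that conjugates the lipid peroxidation product hydroxynonenal, read 13877, 13308, 8639 and 9911 after coumarin. Its CCO2 values were 3521, 3501, 4062 and 5731, a difference of 1.44 ± 0.22 (adjusted p = 0.00046). Gstm4 read 6663, 6524, 5704 and 7365 against 2260, 1697, 3187 and 2704, also a difference of 1.44 (± 0.23, adjusted p = 0.0006). Neither gene's groups overlapped. Among the 50 other arrays of run A, 6 reached the lowest coumarin value for Gsta4 and 4 did for Gstm4. Gstm1, one of the main mu class enzymes of mouse liver, falls outside the rule for named genes and is given because all 4 of its probe sets rose. Its brightest probe set read 53489, 72563, 53849 and 51037 against 19937, 32890, 23490 and 40522 (difference 1.02 ± 0.18, adjusted p = 0.003). The other probe sets of Gstm1 rose by 1.19, 1.56 and 2.07. Mu class genes are close in sequence, and probe sets whose names end in _s_at or _x_at can bind transcripts of several of them, so the share of each gene in these signals is uncertain.

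The mu class genes lie side by side on chromosome 3, in the order Gstm5, Gstm7, Gstm6, Gstm3, Gstm2, Gstm1 and Gstm4 in RefSeq. Along that order the differences were 0.15, 0.34, 0.35, 2.73, 0.95, 1.02 and 1.44. The 4 neighbours from Gstm3 to Gstm4 thus had the larger differences, and Gstm2 (5060, 5261, 5354 and 4372 against 1547, 2855, 3060 and 3277) missed the threshold at an adjusted p of 0.054. Gsta3, on chromosome 1, differed by 0.28 ± 0.29 (adjusted p = 0.92). The pi class gene Gstp1 read 42933 to 62030 with coumarin and 30116 to 35335 in CCO2, without overlap, a difference of 0.66 ± 0.16 (adjusted p = 0.06). It passed under 5 of the alternatives, with adjusted p of 0.01 to 0.036. Mgst1, a microsomal transferase, differed by 0.02 ± 0.16. It read 50269 to 60666 with coumarin and 43398 to 59081 in CCO2, high signals at which a difference may be compressed.

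**Figure D2:**
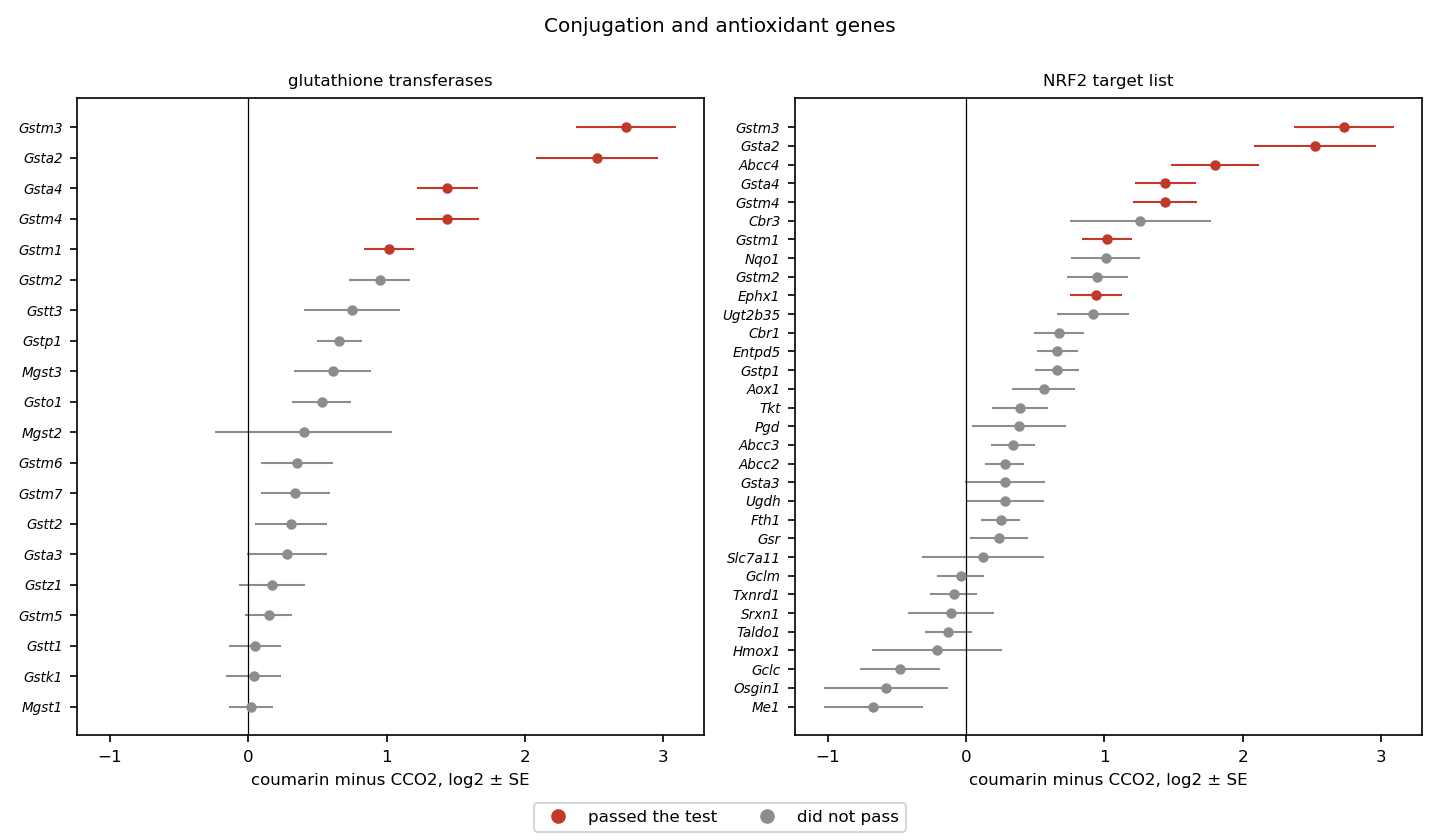
Difference between coumarin and CCO2 (horizontal axis, log2 ± SE, 4 arrays in each group) for the 20 measured glutathione transferases (left) and the 32 measured members of the NRF2 target list (right), red where the test was passed. All transferases lie right of zero, whereas 8 NRF2 list members lie left of it.

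The promoters of Gstm3 and Gstm4, neighbours that both rose, are shown with those of 2 other risen genes, Abcc4 and Acox2, in which the core of the antioxidant response element was found. The core was searched as TGACNNNGC on both strands in the 250 bases before each RefSeq start site (GRCm38.p6), and its letters are in capitals. Promoters were at hand for 33 of the 37 changed genes, and 5 of them (15.2%) held the core, namely Abcc4, Acox2, Gnat2, Rpl22l1 and Them7. Of all 27025 genes with a promoter there, 11.5% held it. The windows of Gstm3, Gstm1 and Gstm4 held no match, and bases further upstream were not searched. The 4 of 18 transferases that held it (22.2%) were Gsta3, Gstm5, Gstm7 and Mgst1, none of which passed the test. Abcc4 had a match before each of its 2 start sites, on opposite strands. All windows shown are on the minus strand and are read toward the start site.
Gstm3, chr3:107969175-107969424: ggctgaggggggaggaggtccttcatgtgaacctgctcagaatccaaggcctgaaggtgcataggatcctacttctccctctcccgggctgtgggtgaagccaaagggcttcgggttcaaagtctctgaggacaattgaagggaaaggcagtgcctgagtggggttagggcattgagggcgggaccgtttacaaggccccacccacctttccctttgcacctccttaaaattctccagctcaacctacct
Gstm4, chr3:108044860-108045109: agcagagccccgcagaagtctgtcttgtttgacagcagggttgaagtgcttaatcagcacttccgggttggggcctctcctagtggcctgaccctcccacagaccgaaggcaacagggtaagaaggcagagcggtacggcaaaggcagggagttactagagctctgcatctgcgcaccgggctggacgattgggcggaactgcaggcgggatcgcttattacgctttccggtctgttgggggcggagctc
Abcc4, first start site, chr14:118706220-118706469: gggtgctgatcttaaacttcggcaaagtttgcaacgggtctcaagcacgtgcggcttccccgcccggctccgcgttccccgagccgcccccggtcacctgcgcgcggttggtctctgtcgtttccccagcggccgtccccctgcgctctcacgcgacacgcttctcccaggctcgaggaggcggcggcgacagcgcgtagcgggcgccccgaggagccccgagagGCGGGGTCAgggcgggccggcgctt
Abcc4, the second start site, chr14:118676932-118677181: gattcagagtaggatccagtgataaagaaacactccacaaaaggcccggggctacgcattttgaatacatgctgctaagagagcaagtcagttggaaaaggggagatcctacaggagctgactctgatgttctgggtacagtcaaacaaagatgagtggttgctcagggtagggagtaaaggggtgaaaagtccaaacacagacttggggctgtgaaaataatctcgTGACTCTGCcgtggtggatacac
Acox2, chr14:8259020-8259269: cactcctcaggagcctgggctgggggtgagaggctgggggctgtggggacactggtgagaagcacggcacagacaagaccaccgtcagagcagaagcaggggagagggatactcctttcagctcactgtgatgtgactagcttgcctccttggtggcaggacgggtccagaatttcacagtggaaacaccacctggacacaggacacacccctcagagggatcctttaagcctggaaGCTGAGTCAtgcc
A match is a description of these letters, not a shown binding site.

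Of the 32 measured NRF2 list genes 7 rose, as did 0.181% of all genes, and none fell, with a median difference of 0.38. In 14 of the 32 every coumarin array exceeded every CCO2 array, which held for 2.18% of all genes. The reverse held for none of the 32, though 8 differences were below zero. Of the 7, 5 were the transferases above, and the others were Abcc4 and Ephx1. Abcc4, which pumps conjugates and bile acids out of the hepatocyte, read 410, 448, 756 and 409 after coumarin and 89.3, 165, 142 and 126 in CCO2. The groups lay apart by 1.80 ± 0.32 (3.49-fold, adjusted p = 0.003). Among the 50 other arrays of run A, 11 reached the lowest coumarin value of Abcc4, and the highest of them read 4628. Ephx1, the microsomal epoxide hydrolase, read 21155, 22680, 19260 and 27872 against 8644, 11016, 19994 and 9849. Here CCO2 replicate 3 lay inside the coumarin range, and the difference was 0.94 ± 0.19 (adjusted p = 0.016). The Ephx1 call was lost without coumarin replicate 4 (adjusted p = 0.096) or CCO2 replicate 1 (0.13), 2 (0.064) or 4 (0.11).

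The other classical antioxidant genes did not pass. Nqo1, the quinone reductase, read 1274, 1052, 1210 and 974 against 678, 579, 506 and 459. Its groups did not overlap, but the difference of 1.01 ± 0.25 had an adjusted p of 0.076. It passed when dim probe sets were left out (0.036), with the larger pseudocount (0.029) and with 1 probe set per gene (0.045). Gclc and Gclm, the subunits of the enzyme that limits glutathione synthesis, differed by -0.48 ± 0.29 and -0.04 ± 0.17. Srxn1 and Txnrd1, which keep peroxiredoxin and thioredoxin reduced, differed by -0.11 ± 0.31 and -0.09 ± 0.17. Hmox1, the inducible haem oxygenase, differed by -0.21 ± 0.47. Cbr3, a carbonyl reductase, read 170, 209, 341 and 448 against 153, 118, 87.1 and 72.7, without overlap (1.26 ± 0.51, adjusted p = 0.53). Also without overlap were Entpd5 (0.66 ± 0.15, adjusted p = 0.052), Cbr1 (0.67 ± 0.18, adjusted p = 0.15) and Ugt2b35 (0.92 ± 0.26, adjusted p = 0.17).

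**Figure D3:**
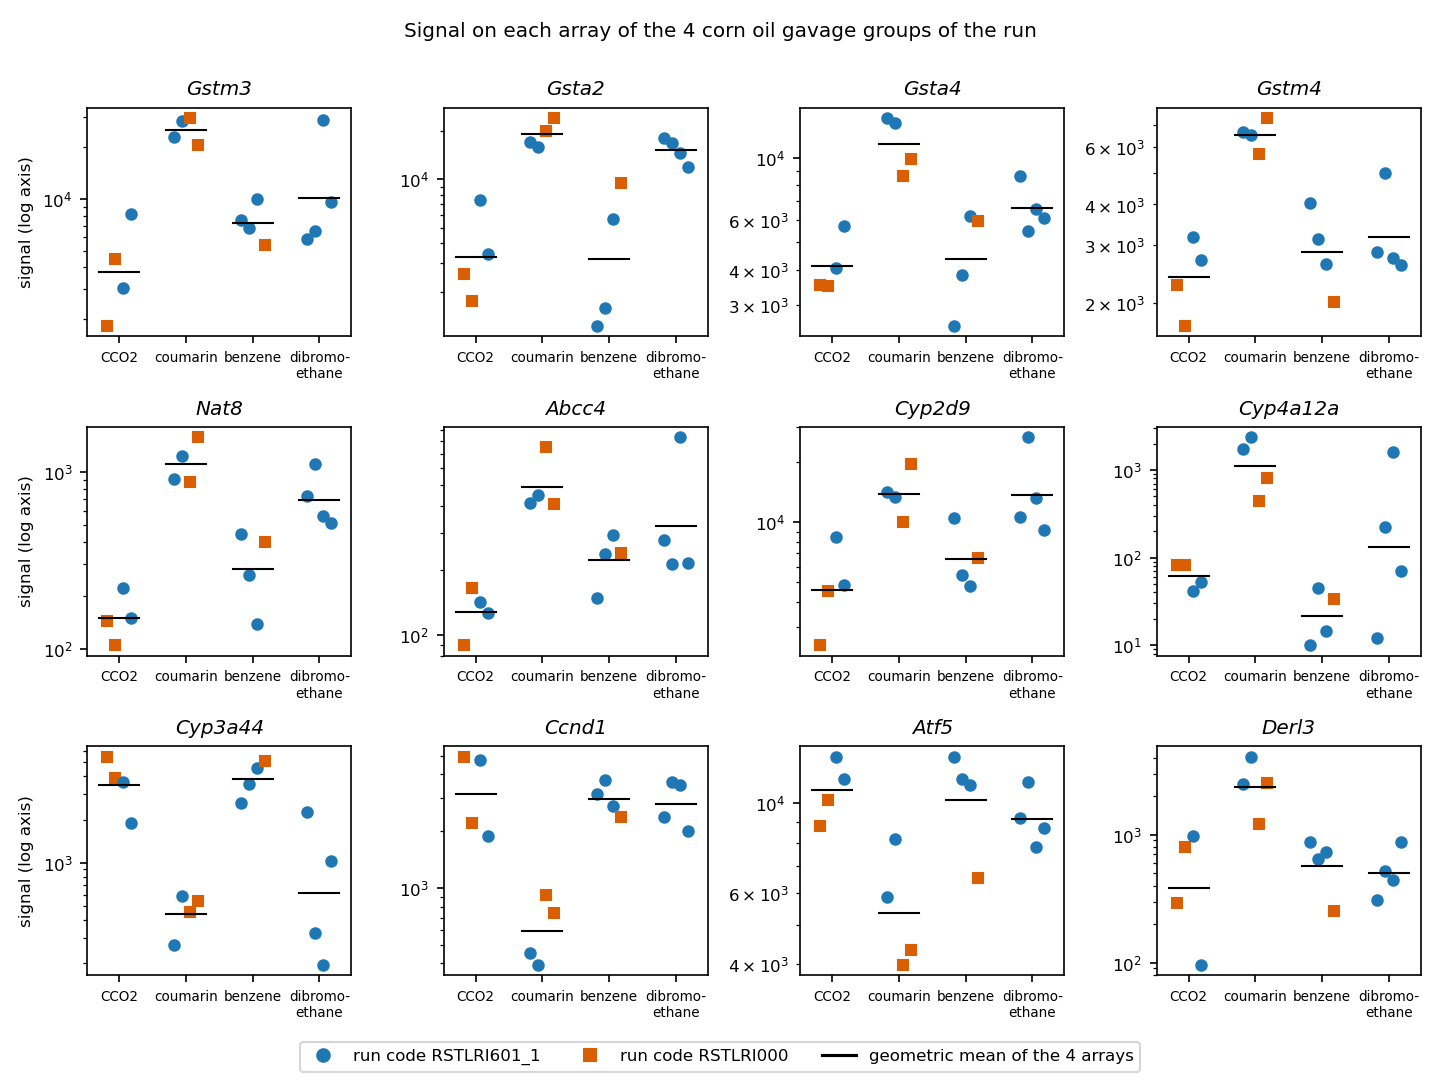
Signal on each array (log axis) for 12 genes in the 4 corn oil gavage groups of run A, with marker and colour for the run code and a bar at the geometric mean of 4 arrays. Coumarin arrays lie above all CCO2 arrays for the first 8 genes and for Derl3, and below all of them for Cyp3a44, Ccnd1 and Atf5.

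In the list of genes that metabolise coumarin itself 1 of 16 measured genes rose (Ephx1), none fell, and the median difference was 0.17. Cyp2e1, which oxidises small solvents and forms the coumarin epoxide, read 51016, 61965, 52618 and 53515 against 55201, 62326, 41619 and 58319, a difference of 0.02 ± 0.18. Alb read 53935, 67176, 53626 and 55756 against 56050, 65344, 40651 and 60434 on the same arrays. A difference may be compressed at such high signals, which was not tested, so a change in Cyp2e1 could be missed. Cyp2f2, a P450 of periportal hepatocytes and airway club cells, read 38398 to 46743 with coumarin and 27190 to 35292 in CCO2, without overlap, but its difference of 0.43 ± 0.18 did not pass (adjusted p = 0.53). No probe set was assigned to Cyp2a5 alone, and it was not analysed here.

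Among all measured Cyp genes of families 1 to 4, 2 of 56 rose, 1 fell and the median was 0.10. The reporter genes of the xenobiotic receptors did not pass. Cyp1a1 and Cyp1a2, read out by the dioxin receptor AhR, differed by 0.14 ± 0.28 and 0.17 ± 0.20. Cyp2b10, read out by CAR, read 6215, 5164, 3624 and 4433 against 4493, 2197, 1913 and 2760, with overlap (0.82 ± 0.52, adjusted p = 0.79). Cyp3a11, read out by PXR, differed by 0.03 ± 0.16. It read 50411 to 58934 with coumarin and 42298 to 58415 in CCO2, near the level of Alb. A difference may be compressed at such high signals, which was not tested, so the value says little about PXR. Cyp4a14, read out by PPARalpha, differed by 0.20 ± 0.76, with CCO2 replicate 1 (10666) below the other 7 arrays. In the list for CAR and PXR 1 of 19 genes rose (Gstm3), and in the lists for AhR (8 genes) and PPARalpha (22 genes) none changed.

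The P450 genes that did change are known to differ between male and female mouse liver. Cyp4a12a, a male-predominant fatty acid hydroxylase, read 1740, 2358, 439 and 808 in these coumarin-treated females. In CCO2 females it read 81.2, 82.4, 41.5 and 53.1. Its rise of 3.81 ± 0.62 (14.0-fold, adjusted p = 0.00079) was 4.99 in run code RSTLRI601_1 and 2.63 in RSTLRI000. The lowest treated value was thus above the highest control, and the treated mice of the 2 run codes differed among themselves. Cyp2d9, a male-predominant steroid hydroxylase, read 14163, 13489, 10040 and 19664 against 2417, 4533, 8445 and 4834 (1.60 ± 0.30, adjusted p = 0.0064). That call was lost without coumarin replicate 4 (adjusted p = 0.061) or CCO2 replicate 1 (0.086). Among the 50 other arrays of run A, 4 reached the lowest coumarin value of Cyp2d9. Cyp3a44, a female-predominant P450, read 268, 588, 453 and 540 after coumarin and 5456, 3868, 3657 and 1899 in CCO2. All treated values were below all controls, and it fell by 2.92 on the log2 scale (SE 0.44, 7.58-fold, adjusted p = 0.00031). Among the 50 other arrays, 2 read no higher than the highest coumarin value of Cyp3a44.

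Of all genes 0.181% rose and 0.022% fell. Over the list of male-predominant genes 2 of 17 rose (Cyp4a12a and Cyp2d9), none fell, and the median was 0.17 with 10 above zero. Over the female-predominant list 1 of 20 fell (Cyp3a44), none rose, and the median was -0.36 with 17 below zero. In 4 of these 20 genes, Cyp3a44 among them, every coumarin array lay below every CCO2 array. Groups did not overlap, in either direction, in 3.39% of all probe sets. The female-predominant genes with groups apart other than Cyp3a44 did not pass. Cyp2b13 read 2569, 2289, 1767 and 4479 against 8375, 9379, 7833 and 8439 (-1.69 ± 0.55, adjusted p = 0.31). Cyp17a1, which makes androgen precursors, read 581, 757, 960 and 518 against 1307, 1578, 1224 and 2684 (-1.22 ± 0.38, adjusted p = 0.27). Hao2, a hydroxy acid oxidase, read 1443, 1422, 706 and 842 against 1980, 2812, 1950 and 5884 (-1.41 ± 0.58, adjusted p = 0.53). On their brightest probe sets Cyp2b9 (-0.31), Fmo2 (-0.40) and Sult3a1 (-0.95) had overlapping groups and did not pass. Sult1e1 went the other way, with the highest difference of the list (1.62), and did not pass either.

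Not every male-predominant gene lay higher. Slco1a1, an organic anion uptake carrier, read 497, 2002, 85.3 and 1269 against 1511, 4084, 972 and 2496 (-1.71 ± 0.70, adjusted p = 0.54). Hsd3b5 read 70, 534, 80.3 and 1547 against 447, 902, 428 and 566, with full overlap. In the growth hormone and STAT5 list none of 18 genes changed, and 16 differences were below zero (median -0.18). Bcl6, a repressor that is higher in male liver, read 2223, 1084, 1687 and 310 against 779, 357, 205 and 236 (1.59 ± 0.56, adjusted p = 0.41). Cux2, a female-specific repressor, differed by -0.10 ± 0.23 on its brightest probe set, and by -1.69 ± 0.60 and -0.87 ± 0.33 on the others (adjusted p = 0.41 and 0.47), each with overlap. Igf1, the main growth hormone target, differed by -0.05 ± 0.16.

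**Figure D4:**
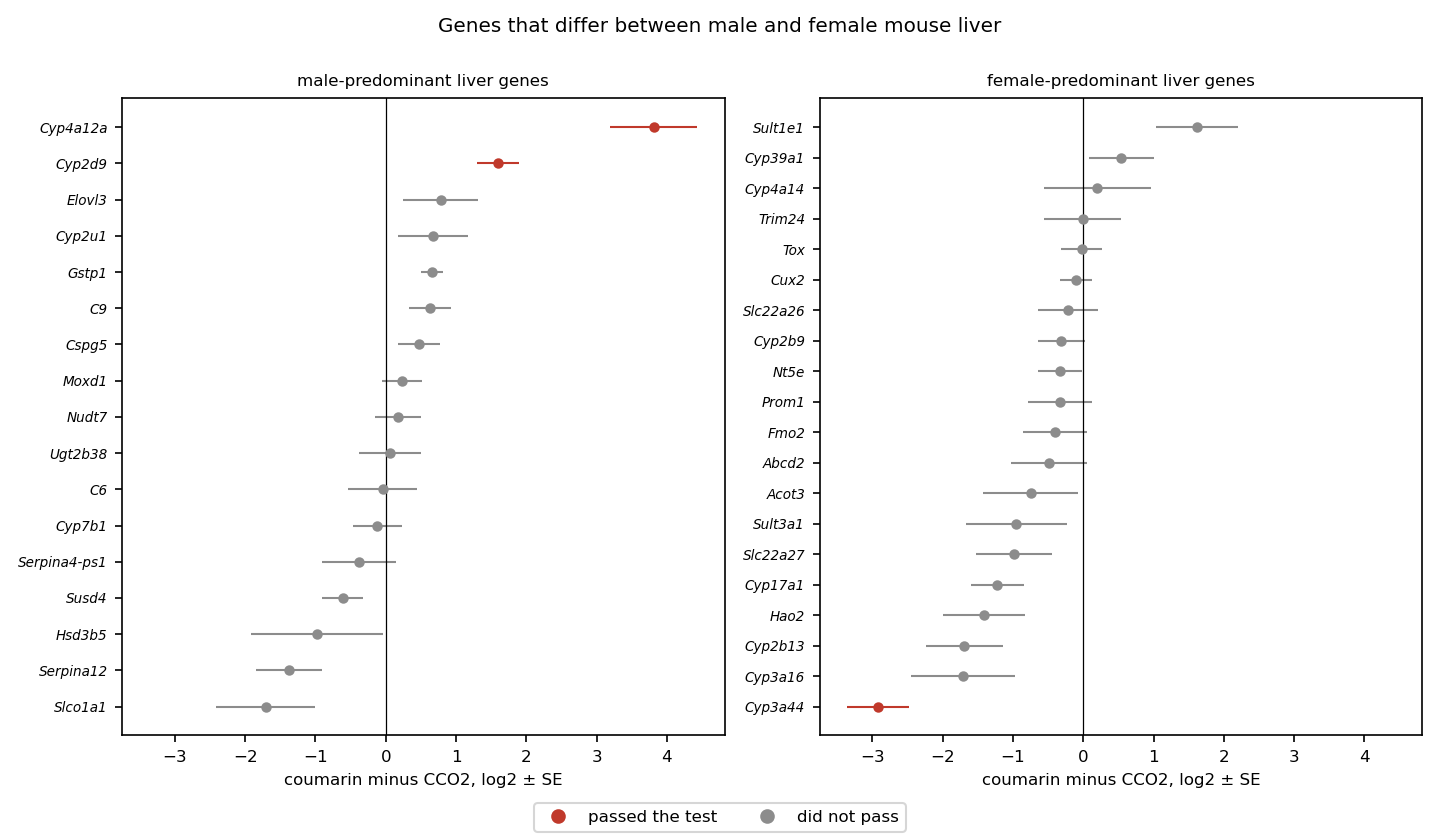
Difference between coumarin and CCO2 (horizontal axis, log2 ± SE) for the 17 measured male-predominant genes (left) and the 20 measured female-predominant genes (right), red where the test was passed. Cyp4a12a (3.81) and Cyp3a44 (-2.92) lie at the ends, and most female-predominant genes lie left of zero without passing.

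Cyclin D1 (Ccnd1), which drives cells through the G1 phase by activating CDK4 and CDK6, fell. It read 454, 394, 924 and 735 in coumarin mice and 4950, 2198, 4765 and 1877 in CCO2 mice. The highest treated value was below the lowest control, and it fell by 2.38 on the log2 scale (SE 0.34, 5.19-fold, adjusted p = 8.1e-05). Its other probe sets fell by 2.09 and 2.02, both past the threshold. The difference was -2.77 within run code RSTLRI601_1 and -1.98 within RSTLRI000. No other array of run A was as low, since the 50 arrays outside the coumarin group read 1574 to 5041. The group with the next lowest mean, 4-nitroanthranilic acid in feed, read 1574 to 2690.

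No other cell cycle gene passed. In the G1 list 1 of 17 genes fell (Ccnd1), none rose, and the median was 0.05. Ccnd2 and Ccnd3, the sister cyclins, differed by -0.46 ± 0.21 and -0.01 ± 0.20, and Cdk4 by 0.05 ± 0.17. Among 23 genes of S phase and mitosis none changed, with a median of 0.25. Mki67, the proliferation marker, read 56.7, 67, 37.9 and 30.4 against 27.4, 103, 44.4 and 82.8, with overlap. Mcm6, a subunit of the replicative helicase, read 899, 905, 302 and 472 against 350, 280, 206 and 231 (1.11 ± 0.36, adjusted p = 0.33). Of 22 p53 target genes none changed, and the median was 0.01. Cdkn1a (p21) read 1819, 1200, 326 and 501 against 2349, 726, 542 and 330, so that arrays of 1 group differed more than the groups did. Within run codes its difference was 1.76 in RSTLRI601_1 and -1.65 in RSTLRI000. Mdm2 and Ccng1 differed by -0.62 ± 0.37 and 0.15 ± 0.16.

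**Figure D5:**
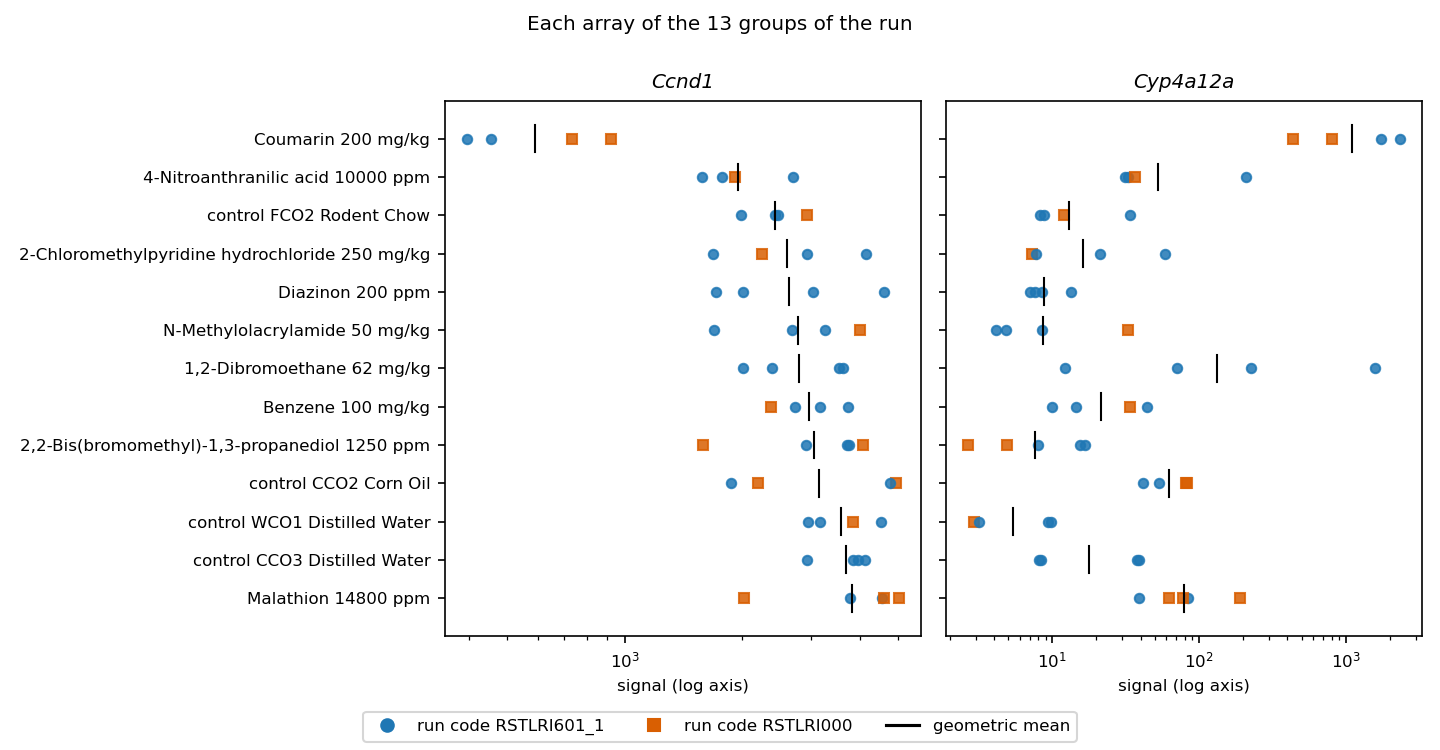
Signal on each array (log axis) of the 13 groups of run A for Ccnd1 (left) and Cyp4a12a (right), with marker and colour for the run code and a bar at the geometric mean. The 4 coumarin arrays read 394 to 924 for Ccnd1, below all 50 others, and 439 to 2358 for Cyp4a12a, where 1 dibromoethane array (1590) lies among them.

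Derl3 and Syvn1, both of the pathway that clears misfolded proteins from the endoplasmic reticulum, moved in opposite directions. Derl3, a membrane protein of the derlin family, read 2483, 4054, 1211 and 2509 against 293, 800, 974 and 96.3. The groups lay apart (2.53 ± 0.57, adjusted p = 0.04), and each of the 50 other arrays of the run was below the lowest coumarin value. The Derl3 call was lost without coumarin replicate 1, 2 or 4 or CCO2 replicate 1 or 4, with adjusted p of 0.098 to 0.29. Syvn1, the ubiquitin ligase of the same pathway, fell. It read 1768, 2157, 1492 and 1311 against 3134, 4192, 6672 and 2594 (-1.22 ± 0.27, adjusted p = 0.033). Its other probe set differed by -1.08 (adjusted p = 0.053), and the call was kept only without CCO2 replicate 4, the adjusted p otherwise being 0.051 to 0.18 with an array left out. Atf5, a transcription factor of the amino acid and mitochondrial stress response, read 5868, 8162, 3988 and 4329 against 8810, 10167, 13041 and 11493. It fell by 1.00 on the log2 scale (SE 0.17, adjusted p = 0.0012), and the call held whichever array was left out. Among the 50 other arrays of the run, 5 read no higher than the highest coumarin value of Atf5.

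In the list for endoplasmic reticulum and amino acid stress 1 of 21 genes fell (Atf5), none rose, and the median was -0.33 with 15 below zero. Hspa5, the chaperone BiP, read 14493, 14844, 16985 and 12649 against 21448, 28350, 26817 and 21361, without overlap (-0.73 ± 0.26, adjusted p = 0.42). Asns, an ATF4 target, read 116, 239, 547 and 353 against 110, 326, 84 and 55.2 (1.12 ± 0.38, adjusted p = 0.37). Among 11 heat shock genes none changed, with a median of -0.60. Hspa1b, the inducible chaperone, read 238, 1368, 233 and 2725 against 3251, 5311, 3931 and 4063, again without overlap (-2.54 ± 0.73, adjusted p = 0.21). The metallothioneins, which bind zinc and copper, did not pass. Mt2 read 16498, 7724, 32731 and 11362 against 4352, 3268, 2546 and 4141 (2.07 ± 0.70, adjusted p = 0.36). The groups did not overlap there. Mt1 differed by 1.37 ± 0.48 (adjusted p = 0.41) on its brightest probe set, also without overlap, and its other probe set read 1206, 1327, 988 and 311 against 194, 150, 373 and 957, with overlap.

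Several other large rises belonged to no list. Nat8, an acetyltransferase that completes mercapturic acids from cysteine conjugates, read 906, 1219, 878 and 1560 against 144, 105, 220 and 149. Its groups lay far apart (2.76 ± 0.46, 6.75-fold, adjusted p = 0.0012), and 1 of the 50 other arrays of the run reached the lowest coumarin value. Ly6f, of the Ly6 family of small surface proteins, read 178, 105, 1332 and 327 against 67.8, 6.03, 37 and 32.9 (2.75 ± 0.47, adjusted p = 0.0018). Coumarin replicate 3 stood well above the other treated mice, and the SD on the log2 scale was 1.5 with coumarin, 0.77 in CCO2 and 0.44 with benzene. Sdr39u1, a predicted dehydrogenase, read 892, 744, 571 and 530 against 198, 88.2, 196 and 174 (1.98 ± 0.35, adjusted p = 0.0024), while its dimmer probe set differed by -0.58 (adjusted p = 0.82).

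Dpy19l3, a C-mannosyltransferase, read 382, 472, 370 and 397 against 108, 95.9, 142 and 68.4, 2 tight groups (1.83 ± 0.35, adjusted p = 0.007). Without CCO2 replicate 4 the adjusted p was 0.061. A dimmer Dpy19l3 probe set rose by 2.45, and another differed by 0.89 (adjusted p = 0.38). Hsf2bp, which binds heat shock factor 2 and acts in meiotic recombination, read 285, 296, 431 and 320 against 66.7, 43.9, 74.6 and 40.8 (2.26 ± 0.50, adjusted p = 0.034). That call was lost whichever array was left out (adjusted p 0.052 to 0.17), and a dimmer probe set of Hsf2bp differed by 0.24. Nkx3-2, a homeobox repressor, read 21.5, 42.2, 77.4 and 85.2 against 14.7, 9.48, 2.62 and 4.52 (1.48 ± 0.32, adjusted p = 0.025), at signals near the pseudocount. It was kept without coumarin replicate 1 or CCO2 replicate 1, and lost without any other array (adjusted p 0.056 to 0.13).

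Acox2 and Abcg2 rose by smaller amounts. Acox2, the peroxisomal oxidase that shortens the side chain of bile acid precursors, read 11266, 11416, 11167 and 8775 against 6177, 7071, 5567 and 6464 (0.75 ± 0.14, adjusted p = 0.0047). It was the only gene to change among 19 of bile acid synthesis and transport, whose median was 0.03. Abcg2, an efflux pump for drugs and urate, read 2826, 2235, 1710 and 2093 against 1324, 1035, 1149 and 1460 (0.82 ± 0.18, adjusted p = 0.033). The Abcg2 call was kept without coumarin replicate 3 or CCO2 replicate 1, and lost without any other array (adjusted p 0.058 to 0.19). Abcc4 and Abcg2 were the 2 risen members of 15 transporters, and none of these fell. Abcc3, a basolateral conjugate pump, differed by 0.34 ± 0.16.

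Another 2 changed genes are given for what they are known for, and were chosen after their values were seen. Afp, the fetal liver protein alpha-fetoprotein, changed through a dimmer probe set that read 111, 248, 776 and 1050 against 50.5, 24.9, 77.2 and 0.827 (3.13 ± 0.57, adjusted p = 0.0031). Both coumarin arrays of run code RSTLRI000 were higher than both of RSTLRI601_1. The brightest Afp probe set read 96.5, 71.1, 387 and 423 against 19.9, 43, 21.4 and 70.4 and did not pass (adjusted p = 0.26), and the remaining probe sets differed by 2.02, 1.12 and -0.25. Il33, an alarm cytokine, read 129, 199, 391 and 100 against 79.5, 54.3, 37.8 and 56.7 (1.44 ± 0.29, adjusted p = 0.012). In the benzene and 1,2-dibromoethane groups of run A, Il33 read 85.7 to 214 and 68.9 to 182. Coumarin differed from those groups by 0.40 (adjusted p = 0.89) and 0.50 (adjusted p = 0.74), so the call holds against CCO2 only.

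Lipid and circadian genes did not pass on their brightest probe sets. None changed there among 20 genes of fatty acid synthesis and storage (median -0.13), 19 of cholesterol synthesis (median 0.39, with 17 above zero) or 19 of the circadian clock (median 0.01). Acly, which makes acetyl-CoA for lipid synthesis, and Hsd17b7, of cholesterol synthesis, were the only list members that changed through a dimmer probe set alone. That of Acly read 117, 120, 58.3 and 234 against 37.4, 12.5, 9.41 and 2.44 (2.17, adjusted p = 0.019), while its brightest, at 0.20, did not pass. That of Hsd17b7 read 4.78, 48.6, 11.2 and 83.8 against 122, 104, 103 and 112 (-1.49, adjusted p = 0.019), with some coumarin signals below the pseudocount. On brightest probe sets the lowest difference of the cholesterol list, Hsd17b7 included, was -0.04. Cd36, a fatty acid receptor, read 2991, 1750, 2917 and 925 against 552, 557, 300 and 441, without overlap (2.07 ± 0.54, adjusted p = 0.11). Fgf21, a fasting hormone, read 196, 151, 92.6 and 257 against 511, 627, 638 and 276 (-1.48 ± 0.40, adjusted p = 0.14). Also without a change were the lists for sulfation and glucuronidation (19 genes, median 0.10), acute phase proteins (20, median 0.09), vitamin K dependent clotting factors (10, median -0.08), gluconeogenesis (9, median -0.23) and metal response (4, median 0.74). Pericentral (14) and periportal (10) hepatocyte genes had medians of -0.12 and 0.13.

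No marker of another cell type changed. In bulk tissue, fewer cells of a type and less RNA per cell cannot be told apart. The medians were 0.10 for 11 Kupffer cell and macrophage genes, -0.35 for 11 stellate cell genes, -0.07 for 11 endothelial genes and 0.26 for 9 lymphocyte genes. They were -0.35 for 7 neutrophil genes, 0.00 for 5 bile duct genes, 0.04 for 3 erythroid genes, -0.05 for 8 pancreas genes and 0.21 for 4 adipose genes. The summed signal of the macrophage genes was 17127 to 48151 with coumarin and 16332 to 35519 in CCO2, and that of the lymphocyte genes was 851 to 1751 and 643 to 984. For 8 hepatocyte genes the median was 0.03.

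Benzene (100 mg/kg) and 1,2-dibromoethane (62 mg/kg) were also given in corn oil by gavage in run A, with 4 arrays each. Coumarin could thus be set against their means rather than that of CCO2. The control arrays still entered the shared spread and the run code block. These contrasts share the coumarin arrays with the one above. Against benzene 52 probe sets differed (0.115%), 34 higher with coumarin (0.0755%) and 18 lower (0.04%). Of the 64 probe sets changed against CCO2, 24 passed against benzene with the same sign. Cyp4a12a was higher by 4.81 ± 0.63 (adjusted p = 2.4e-05), Ly6f by 3.02 (adjusted p = 0.00062), Gsta2 by 2.50 (adjusted p = 0.0055) and Gstm3 by 1.90 (adjusted p = 0.013). Gsta4 was higher by 1.42 (adjusted p = 0.00064) and Acox2 by 0.91 (adjusted p = 0.00038). Cyp3a44 differed by -3.18 (adjusted p = 9e-05), and Ccnd1 differed by -2.31 (adjusted p = 0.0002). Nat8 (1.86, adjusted p = 0.11), Abcc4 (1.08, adjusted p = 0.3), Cyp2d9 (1.15, adjusted p = 0.16) and Derl3 (2.08, adjusted p = 0.19) did not pass.

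Against 1,2-dibromoethane 43 probe sets differed (0.0955%), 15 higher with coumarin (0.0333%) and 28 lower (0.0622%). Ccnd1 was again among the lower ones, at -2.25 ± 0.35 (adjusted p = 0.00054), and Gstm4 among the higher ones, at 1.12 (adjusted p = 0.029). Of the 64 probe sets changed against CCO2, 6 passed here with the same sign, and most did not. Gstm3 (1.54, adjusted p = 0.094), Gsta4 (0.88, adjusted p = 0.15) and Derl3 (2.33, adjusted p = 0.11) did not pass. Nor did Abcc4 (0.60, adjusted p = 0.71), Nat8 (0.59, adjusted p = 0.84) or Ephx1 (-0.21, adjusted p = 0.88). Gsta2 differed by 0.20 ± 0.46, Dpy19l3 by -0.03 ± 0.36, Cyp2d9 by 0.16 ± 0.31 and Cyp3a44 by -0.73 ± 0.46, also without passing. In dibromoethane mice Gsta2 read 11904 to 17990 and Dpy19l3 292 to 566, beside 15932 to 23936 and 370 to 472 with coumarin. Cyp4a12a spread from 12.2 to 1590 with dibromoethane, and its difference of 2.72 ± 0.64 had an adjusted p of 0.077. All dibromoethane arrays carried run code RSTLRI601_1, so that contrast rested in part on the run code block. Without the block 44 probe sets were called, 32 of them among the 43.

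2,3-Benzofuran, in which a benzene ring is fused to furan where coumarin has a lactone ring, was given in corn oil by gavage at 240 mg/kg in another run, called run C (3 arrays against 3 corn oil controls). Dose, run and controls differ, so the values stand side by side without a comparison. Benzofuran changed 649 probe sets there (1.44%), and its median signal per array was 86.8 to 88.5 against 113 to 123 in its controls. That count was 44 with values as deposited, 40 with only the 2 groups in the fit and 190 to 413 with an array left out. With benzofuran Cyp4a12a rose by 5.54, Gsta2 by 3.13, Gstm3 by 2.85, Cyp2d9 by 3.04 and Abcc4 by 3.99, beside 3.81, 2.52, 2.73, 1.60 and 1.80 with coumarin. Cyp3a44 differed by -2.32 and Ccnd1 by -1.24, beside -2.92 and -2.38. Of the 32 NRF2 list genes 21 rose with benzofuran, as did 0.918% of all genes, among them Nqo1 (1.77), Cbr3 (4.49) and Srxn1 (1.44), where coumarin had 7. Atf5 rose by 1.00 with benzofuran (adjusted p = 0.041) and fell with coumarin. Nat8 (0.87) and Ly6f (-1.09) did not pass with benzofuran.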

How the data were processed

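Liver RNA of 8 mice, 4 given coumarin and 4 given corn oil (CCO2), was read from the values the authors deposited for 242 arrays. These are linear signal intensity per probe set; the submitters' processing notes name GCOS 1.0, and further steps are not given in the sources used here. On 240 arrays the deposited intensity had a mean of 500 after trimming 2% at each end, and the other 2, neither in run A, were rescaled to it. The rescaling altered the fit of run C. Benzofuran had 649 calls there with it and 44 with values as deposited, at the same median difference (-0.172). The labels give 1 animal per array, and the number of arrays limits the precision.

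Groups were taken from the treatment labels and titles. Of 45101 probe sets 64 were controls, and the 45037 others were tested. Of these 34945 had exactly 1 symbol in GEO's platform annotation, 932 had several and 9160 had none. A gene was represented by its brightest probe set over all arrays (18193 genes).

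The pseudocount, 17.3, is the typical 20th percentile of an array's signal (its median across arrays), and it understates folds of dim genes. limma 3.58.1 (R 4.3.3) was fitted to the 54 arrays of run A, or the 18 of run C, with 1 mean per group, a run code block in run A, eBayes and two-sided Benjamini-Hochberg adjusted p-values. On simulated data for coumarin against CCO2 (45037 probe sets) 27% of 100 changes of 2-fold, 72% of 100 changes of 4-fold and 0.0112% of 44837 unchanged probe sets were called, so many smaller changes would be missed. The simulated noise was independent and normal, with the same spread in every group, as the fit assumes. Real spreads differed, as for Cyp4a14 (SD 0.15 with coumarin, 2.7 with benzene), so these rates may not hold for the real arrays.

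Named by rule were the 12 largest rises and 12 largest falls among changed genes with groups that did not overlap (4 genes met this for falls), up to 4 changed genes of each of 37 lists with the lowest p, and sentinel genes such as Cyp2e1, Nqo1 and Mdm2. Members and lists were chosen with earlier results of these data known. Alternatives were quantile normalization, leaving out dim probe sets, pseudocounts of 4.33 and 69.3, the 2 groups alone, an intensity trend, no minimum fold, 1 probe set per gene, no block, the Gapdh ratio or RNA integrity number (on the 48 arrays of run A that have one) as covariate, those 48 arrays without it (chosen after seeing the data), each run code alone, the intensity values as deposited, and leaving out each array. Promoters and gene order are those of RefSeq (GRCm38.p6). Figures were drawn with matplotlib 3.10.9; numpy 2.4.6 and pandas 2.3.3 handled the data under Python 3.11.15.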

Additional observations from a re-analysis of the deposited data

Results flagged for a closer look

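Both groups of the 38 named genes (76 groups of 4 arrays) were searched for an array that stood apart from the other 3. Such a gap was found in 4 of the 76, and chance gives it in about 1 in 20 groups, so the number is close to that of chance. Values are log2(signal + 17.3). Abcc4 was 9.59 in coumarin replicate 3 and 8.73 to 8.86 in the other treated mice. Acox2 was 13.1 in coumarin replicate 4 and 13.45 to 13.48 in the others. Hmox1 was 7.71 in CCO2 replicate 4 and 8.6 to 8.69 in the other controls. Sdr39u1 was 6.72 in CCO2 replicate 2 and 7.58 to 7.75 in the others. The calls of Abcc4, Acox2 and Sdr39u1 were kept without each of these arrays, with adjusted p of at most 0.039, 0.035 and 0.032 whichever array was left out.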

How the results depend on the processing

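The count of 64 probe sets changed by coumarin became 132 without dim probe sets, 117 with the larger pseudocount, 1 with only the 2 groups, and 4 and 3 within run codes RSTLRI601_1 and RSTLRI000 (2 arrays a group). With an array left out it was 36 to 59, lowest without CCO2 replicates 4 (36) and 2 (37). Against benzene the 52 became 82 without dim probe sets, 80 with the larger pseudocount, 0 with only the 2 groups, 15 and 0 within the codes, and 20 to 48 with an array left out. Against dibromoethane the 43 became 69 without dim probe sets, 27 with the RNA integrity number on the 48 arrays that have one, 28 on the same 48 arrays without it (chosen after seeing the data), 0 with only the 2 groups, and 9 to 65 with an array left out. For benzofuran the 649 became 431 with quantile normalization, 1333 without dim probe sets, 995 with the larger pseudocount, 40 with only the 2 groups, 1255 with the intensity trend, 44 with values as deposited, and 190 to 413 with an array left out. Of 21 named genes changed by coumarin, 13 passed whichever array was left out, all 21 had the same sign in both run codes, and 20 passed with quantile normalization, 17 with the smaller pseudocount and 19 without the block. With only the 2 groups limma called none of the 21 (all 21 had an unadjusted p under 0.05), and 1 passed within each run code. The cause of these shifts was not tested. No paired analysis was possible because replicate numbers were given in accession order and the labels tie no treated mouse to a control.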
